A study of Mus musculus with 8 samples.

Results

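The 10 genes described here carry iron into cells, store it, move it out again and set the level of the exporter. They are Hamp, Tfrc, Trf, Slc40a1, Fth1, Ftl1, Heph, Cp, Slc39a14 and Slc11a2, taken as a named list from the 39056 genes of the count table by mouse symbol. The hearts came from male mice, 3 months old. One group was HVCN1-/-, without the voltage-gated proton channel HVCN1 (written Hv1 in the sample labels), and the other was wild-type (WT), and both were of C57BL/6 background per the study's methods. There were 4 hearts in each group with 1 library per heart, numbered 1 to 4 for HVCN1 null and 5 to 8 for WT. The comparison asked whether loss of the channel went with other levels of these messages in the heart. The labels describe a gene knockout with no limit to a cell type, and they give the tissue as heart without saying which chambers were taken.

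Iron circulates bound to transferrin (Trf) and enters cells with it through the transferrin receptor (Tfrc), after which it leaves the endosome through the divalent metal transporter DMT1 (Slc11a2). Iron that is not bound to transferrin can enter through ZIP14 (Slc39a14), which is not its only route. Spare iron is kept inside ferritin, a shell of heavy (Fth1) and light (Ftl1) chains. The only known exporter of iron from mammalian cells is ferroportin (Slc40a1), which works with the copper oxidases hephaestin (Heph) and ceruloplasmin (Cp) and is degraded when the peptide hormone hepcidin (Hamp) binds it. The heart uses much iron for its mitochondria, and cardiac muscle cells make their own hepcidin, although most of the hormone comes from the liver.

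Each heart gave between 25851255 and 38874640 counts in total. The null group held 16 counts of Hvcn1 in all and the WT group 318, with a log2 fold change of -4.20 (SE 0.38, adjusted p = 0.000363 by edgeR's quasi-likelihood test, HVCN1 null over WT as for every fold change here). Cardiomyocyte markers were present in all 8 hearts, at a summed level of 47424 to 59035 CPM (counts scaled to a common library size). Levels of 8 atrial markers differed widely between hearts of both groups, with summed CPM of 891 to 6342 in the null group and 713 to 11158 in the WT group. For erythroid markers the ranges were 1292 to 8395 (null) and 3020 to 15235 (WT), and for 10 macrophage markers 211 to 275 and 241 to 343. The libraries are of bulk tissue, so fewer cells of a type and less RNA per cell cannot be told apart.

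All 10 iron genes passed the filter on low counts, and none was called a differentially expressed gene (DEG) between HVCN1 null and WT hearts. Over all 14796 genes tested, edgeR's quasi-likelihood test called 169 (1.14%) at a Benjamini-Hochberg adjusted p under 0.05. At an unadjusted p under 0.05 the count was 0 of the 10, where all tested genes gave 1625 (11.0%). The CPM of the groups overlapped for each of the 10, where 1044 of all tested genes (7.06%) had groups that did not overlap. The log2 fold changes ran from -0.25 for Cp to 0.15 for Tfrc, with 3 above 0 and 7 below, and their median was -0.04 beside -0.01 for all tested genes. The smallest adjusted p of the list was 0.542, for Cp. Both other tests of edgeR (exact and likelihood ratio) and limma's voom also called 0 of the 10, and DESeq2 called 0 of 9, since it gave Hamp no adjusted p. In each of these fits 0 of the members given a p had an unadjusted p under 0.05.

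**Figure D1:**
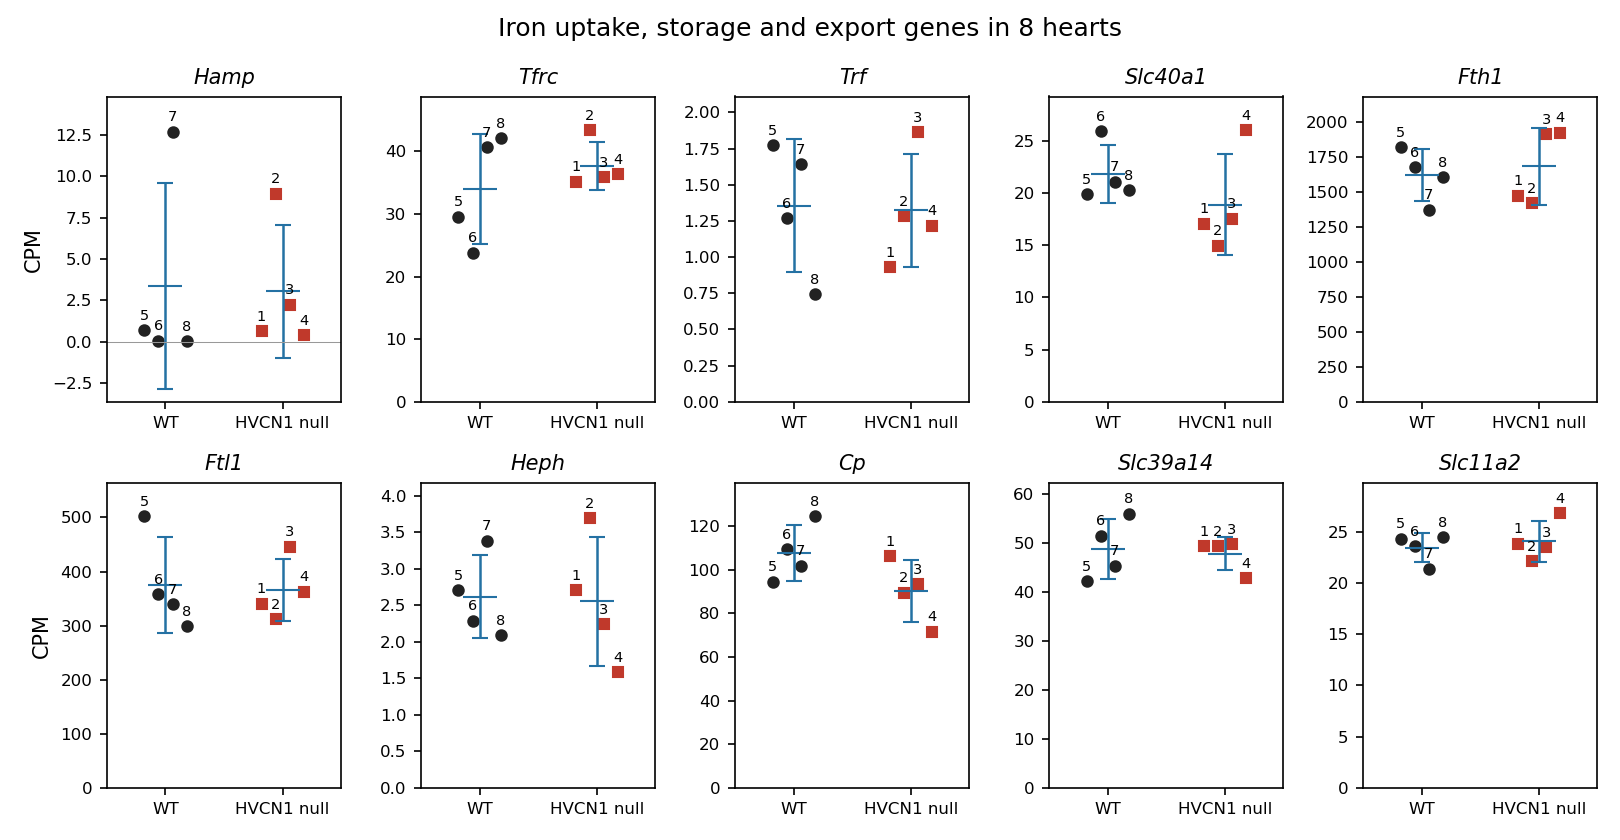
CPM of the 10 iron genes in each heart (vertical axes, linear, one scale per gene), with WT hearts 5 to 8 as black circles and HVCN1 null hearts 1 to 4 as red squares. Blue bars give the group mean and SD, and the groups overlap in every panel, with Hamp reaching 12.7 CPM in WT heart 7 and 8.93 CPM in HVCN1 null heart 2 while the other 6 hearts lie at or below 2.24 CPM.

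Translation and decay of several of these messages are set by iron regulatory proteins, which bind a hairpin called the iron-responsive element (IRE) when iron is low. In the 5′ UTR the bound protein blocks translation, and in the 3′ UTR it protects the message from decay. So by this control the Tfrc message falls as cellular iron rises. For the ferritin and ferroportin messages the same control acts at translation, a step that RNA counts do not show. The annotated transcripts were searched on the sense strand for a C, 5 bases, the loop CAGTGN and 5 bases that pair with the first 5, with G-T pairs allowed. The motif was found in the 5′ UTR of 31 of 22527 coding genes (0.138%) and in the 3′ UTR of 144 (0.639%), and 4 of the 10 members had it. The elements are shown because they divide the list into messages whose amount, or whose translation, is tied to iron. Each is given 5′ to 3′ on the strand of the gene in GRCm38, with the loop in capitals.
Tfrc 3′ UTR, chr16:32631219-32631248, + strand: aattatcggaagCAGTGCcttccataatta
Tfrc 3′ UTR, chr16:32631598-32631627, + strand: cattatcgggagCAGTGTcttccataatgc
Tfrc 3′ UTR, chr16:32631663-32631692, + strand: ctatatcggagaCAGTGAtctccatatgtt
Tfrc 3′ UTR, chr16:32631710-32631739, + strand: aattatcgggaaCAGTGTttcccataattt
Slc40a1 5′ UTR, chr1:45925464-45925493, - strand: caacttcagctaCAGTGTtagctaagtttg
Fth1 5′ UTR, chr19:9982732-9982761, + strand: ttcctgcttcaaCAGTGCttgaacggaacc
Ftl1 5′ UTR, chr7:45459778-45459807, - strand: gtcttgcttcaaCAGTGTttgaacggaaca
The absence of a match in the other members, Slc11a2 included, says only that these letters with a fully paired stem were not in the annotated UTRs.

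Tfrc, the receptor that brings in transferrin-bound iron and the message with 4 of these elements in its 3′ UTR, was the member with the highest fold change. Tfrc (ENSMUSG00000022797, chromosome 16, 32608920 to 32632794) stood at 35.2, 43.4, 35.8 and 36.3 CPM in HVCN1 null hearts 1 to 4 and at 29.6, 23.8, 40.7 and 42.1 CPM in WT hearts 5 to 8. The HVCN1 null hearts lay close together apart from heart 2, while the WT hearts fell into a pair near the null values and a pair below all of them. The means were 37.7 ± 3.82 CPM (SD, n = 4) and 34.0 ± 8.81 CPM (SD, n = 4). The log2 fold change was 0.15 (SE 0.17, 95% interval -0.23 to 0.52, adjusted p = 0.866 by edgeR's quasi-likelihood test), and the two-sided exact permutation test of the CPM gave p = 0.457, where the smallest p for 4 against 4 hearts is 0.0286.

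The ferritin chains were by far the most abundant of these messages, and neither differed between the groups beyond the spread of the hearts. Fth1, the heavy chain with the ferroxidase centre (ENSMUSG00000024661, chromosome 19, 9980598 to 9985098), stood at 1473, 1420, 1913 and 1923 CPM in HVCN1 null hearts 1 to 4. In WT hearts 5 to 8 it stood at 1818, 1678, 1373 and 1607 CPM, so the groups overlapped widely, with the lowest value in a WT heart and the highest in a null heart. The group means were 1682 ± 273 CPM and 1619 ± 186 CPM (SD, n = 4 each), with a log2 fold change of 0.06 (SE 0.14, 95% interval -0.26 to 0.37, adjusted p = 0.954). Ftl1, the light chain (ENSMUSG00000050708, chromosome 7, 45457944 to 45459884), stood at 341, 312, 446 and 363 CPM in HVCN1 null hearts and at 502, 358, 340 and 299 CPM in WT hearts. WT hearts held both the highest and the lowest Ftl1 value. Its log2 fold change was -0.04 (SE 0.17, 95% interval -0.42 to 0.34, adjusted p = 0.980).

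The balance of the ferritin chains sets how fast the shell takes up iron, and so the ratio of their messages was compared per length. This used TPM values, which divide the counts by the length of the exons and scale them to a common sum. HVCN1 null hearts 1 to 4 had 1.67, 1.76, 1.66 and 2.05 times as much Fth1 as Ftl1, and WT hearts 5 to 8 had 1.40, 1.81, 1.56 and 2.07 times as much. Heavy chain messages thus exceeded light chain messages in 8 of 8 hearts. The size of the ratio depends on the length used. The WT means were 1041 (Fth1) and 628 TPM (Ftl1) with all exons, and 1494 and 741 TPM with the longest transcript. The ratio is of messages and not of protein chains. The means of the ratio, 1.78 ± 0.182 and 1.71 ± 0.295 (SD, n = 4 each), did not differ by the two-sided exact permutation test (p = 0.686). The sum of both chains was 1758 ± 238 TPM in HVCN1 null and 1669 ± 243 TPM in WT hearts (exact permutation p = 0.686).

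Ferritin genes have near-identical copies elsewhere in the genome that can share their reads. For Ftl1, 5 other genes of the count table matched at 95% or more of the bases over 80% or more of the copy, and together they held 54 to 128 counts per heart, or 0.607% to 0.987% of the counts of Ftl1. Of these, Ftl1-ps1 on chromosome 13, which is 99.6% identical, had 57, 34, 37 and 39 counts in HVCN1 null hearts and 23, 17, 20 and 14 in WT hearts. Its groups did not overlap, and its log2 fold change was 1.27 (SE 0.27, adjusted p = 0.0547 by edgeR's quasi-likelihood test), which is not past the threshold. Ftl2-ps went the other way, with 21, 22, 28 and 26 counts in HVCN1 null hearts and 67, 43, 38 and 25 in WT hearts (log2 fold change -0.71, SE 0.30, adjusted p = 0.421). How the counting treated reads that fit several genes is not given in the sources used here, so the counts of these copies are uncertain. The counts of Ftl1 are uncertain too, by an amount that the counts of the copies do not bound. The ratio of Fth1 to Ftl1 shares this limit. Both copies were named after their values were seen.

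DMT1 and ZIP14, the membrane transporters of the list that bring in iron without its carrier, were the steadiest members. Slc11a2, which encodes DMT1 (ENSMUSG00000023030, chromosome 15, 100387898 to 100425072), stood at 23.8, 22.1, 23.5 and 26.8 CPM in HVCN1 null hearts and at 24.3, 23.6, 21.4 and 24.5 CPM in WT hearts. Its log2 fold change of 0.04 had the narrowest interval of the 10, from -0.15 to 0.23 (SE 0.09, adjusted p = 0.945). Slc39a14, which encodes ZIP14 (ENSMUSG00000022094, chromosome 14, 70303469 to 70351425), stood at 49.4, 49.4, 49.8 and 42.8 CPM in HVCN1 null hearts. In WT hearts it stood at 42.3, 51.6, 45.4 and 56.0 CPM, so the null values all lay within the WT range. The log2 fold change was -0.03 (SE 0.10, 95% interval -0.26 to 0.20, adjusted p = 0.973), and it was 0.02 when library sizes were not scaled.

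Trf, the carrier itself, is made mainly by the liver for the plasma, and its message was low in the heart. Trf (ENSMUSG00000032554, chromosome 9, 103204001 to 103230444) gave 31, 48, 49 and 43 counts in HVCN1 null hearts and 70, 41, 62 and 22 in WT hearts. The corresponding means were 1.32 ± 0.391 CPM and 1.36 ± 0.461 CPM (SD, n = 4 each), and the lowest value, 0.743 CPM, was that of WT heart 8. The log2 fold change was -0.05 (SE 0.31, 95% interval -0.74 to 0.64, adjusted p = 0.986), an interval wide enough to hold a change of 1.5-fold either way. Of the 3320 exonic bases of Trf, 2108 (63.5%) also belong to Gm20425 on the same strand, a gene listed with 0 counts in every heart, so the level of Trf is uncertain.

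On the export side, ferroportin and ceruloplasmin had the lowest fold changes of the list. Slc40a1, the ferroportin gene (ENSMUSG00000025993, chromosome 1, 45908068 to 45926523), stood at 17.1, 15.0, 17.6 and 26.0 CPM in HVCN1 null hearts and at 19.9, 25.9, 21.1 and 20.3 CPM in WT hearts. Hearts 1 to 3 of the null group lay below all WT hearts, and heart 4 lay above all of them. The means were 18.9 ± 4.87 CPM and 21.8 ± 2.79 CPM (SD, n = 4 each). The log2 fold change was -0.21 (SE 0.16, 95% interval -0.57 to 0.16, adjusted p = 0.777, exact permutation p = 0.343). Without HVCN1 null heart 4 it was -0.40 (adjusted p = 0.196, with an unadjusted p under 0.05), and with the erythroid marker mean as a covariate it was -0.05 (adjusted p = 0.909), both by edgeR's quasi-likelihood test.

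Cp encodes ceruloplasmin, the copper oxidase that loads exported iron onto transferrin (ENSMUSG00000003617, chromosome 3, 19957054 to 20009145). It stood at 106, 89.6, 93.3 and 71.6 CPM in HVCN1 null hearts and at 94.6, 109, 102 and 125 CPM in WT hearts. The highest null heart, heart 1, exceeded WT hearts 5 and 7, and the other 3 null hearts lay below all WT hearts. The means were 90.2 ± 14.3 CPM and 108 ± 12.8 CPM (SD, n = 4 each), with a log2 fold change of -0.25 (SE 0.13, 95% interval -0.55 to 0.04, adjusted p = 0.542, exact permutation p = 0.114). Other settings gave Cp a log2 fold change of -0.44 to -0.16, and the lowest adjusted p was 0.215, reached with the erythroid marker mean as a covariate. Without HVCN1 null heart 1 or with that covariate, Cp had an unadjusted p under 0.05 in edgeR's quasi-likelihood test. Heph, the membrane-bound relative of ceruloplasmin (ENSMUSG00000031209, chromosome X, 96455359 to 96574485), stood at 2.70, 3.69, 2.24 and 1.58 CPM in HVCN1 null hearts and at 2.71, 2.29, 3.39 and 2.09 CPM in WT hearts. The null hearts held both ends of its range, and the log2 fold change was -0.04 (SE 0.27, 95% interval -0.63 to 0.55, adjusted p = 0.990). With the erythroid marker mean as a covariate it was -0.44 (adjusted p = 0.538 by edgeR's quasi-likelihood test).

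**Figure D2:**
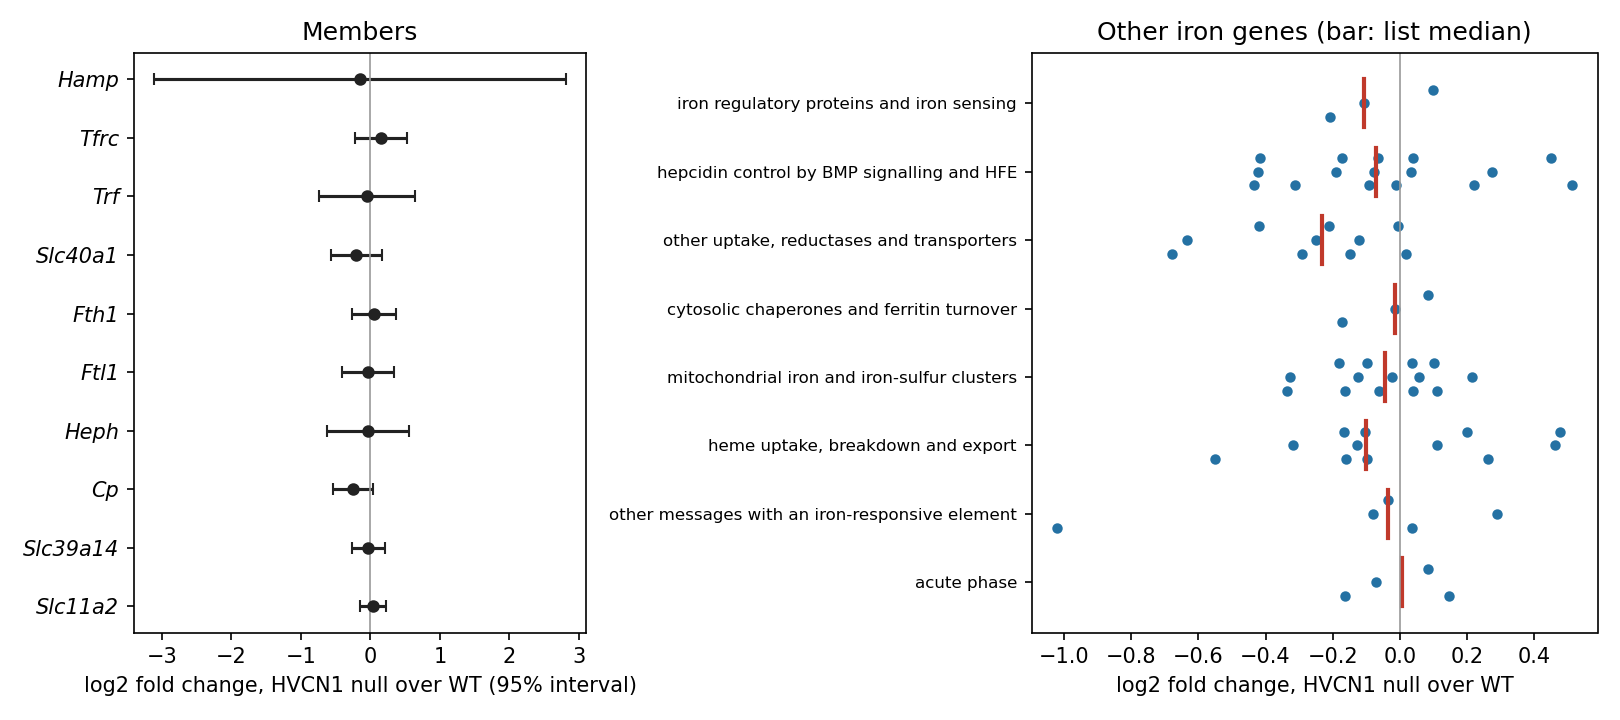
Log2 fold change of HVCN1 null over WT hearts from edgeR's quasi-likelihood fit (horizontal axes) for the 10 iron genes with their 95% intervals (left) and for 67 other tested iron genes grouped by role (right, 1 point per gene, red bar at the list median). All 10 intervals on the left include 0, the widest being that of Hamp from -3.11 to 2.81, and no point on the right passed the threshold.

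Hamp, the hormone that makes cells degrade ferroportin, varied more between hearts than any other member, and its highest values came from 1 heart of each genotype. Hamp (ENSMUSG00000050440, chromosome 7, 30942368 to 30944032) gave 21, 334, 59 and 14 counts in HVCN1 null hearts 1 to 4 and 28, 2, 480 and 1 counts in WT hearts 5 to 8. As CPM these were 0.631, 8.93, 2.24 and 0.396, then 0.709, 0.0618, 12.7 and 0.0338. One heart of each group, HVCN1 null heart 2 and WT heart 7, held 814 of its 939 counts (86.7%, Wilson 95% interval 84.4% to 88.7%, which covers counting error only). The counts of WT hearts 6 and 8 lie below a floor of 3 counts, so their levels are not told apart from 0. The means were 3.05 ± 4.01 CPM and 3.37 ± 6.22 CPM (SD, n = 4 each), with a log2 fold change of -0.15 (SE 1.34, 95% interval -3.11 to 2.81, adjusted p = 0.993, exact permutation p = 0.943).

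The sign of the Hamp value depended on single hearts. Without WT heart 7 the log2 fold change was 3.39 (adjusted p = 0.300, with an unadjusted p under 0.05), without HVCN1 null heart 2 it was -1.68 (adjusted p = 0.790), and without both it was 1.88 (adjusted p = 0.592). Without HVCN1 null heart 1 it was 0.19 and without HVCN1 null heart 4 it was 0.22 (adjusted p = 0.987 and 0.986), all by edgeR's quasi-likelihood test. On the log2 CPM scale the null mean was higher by 1.47 (exact permutation p = 0.514). The fit without both hearts was chosen after the values had been seen.

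The hearts with the most Hamp were those with the most atrial message. The summed level of the 8 atrial markers was 909, 6342, 5028 and 891 CPM in HVCN1 null hearts 1 to 4 and 4498, 738, 11158 and 713 CPM in WT hearts 5 to 8. Ranked by either measure the 8 hearts fell in the same order, from heart 7 through hearts 2, 3, 5, 1, 4 and 6 to heart 8. Across the 8 hearts the log2 CPM of Hamp and the mean log2 CPM of the atrial markers had a Pearson r of 0.963, given as a description. Bmp10, an atrial growth factor among those markers, gave 6, 15633, 1 and 109 counts in the null hearts and 6, 6, 21695 and 6 in the WT hearts, so hearts 2 and 7 held 99.6% of its counts beside 86.7% of those of Hamp. With the atrial marker mean as a covariate the log2 fold change of Hamp was 0.86 (SE 0.41, adjusted p = 0.438 by edgeR's quasi-likelihood test), and with the erythroid marker mean it was -2.14 (adjusted p = 0.585).

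**Figure D3:**
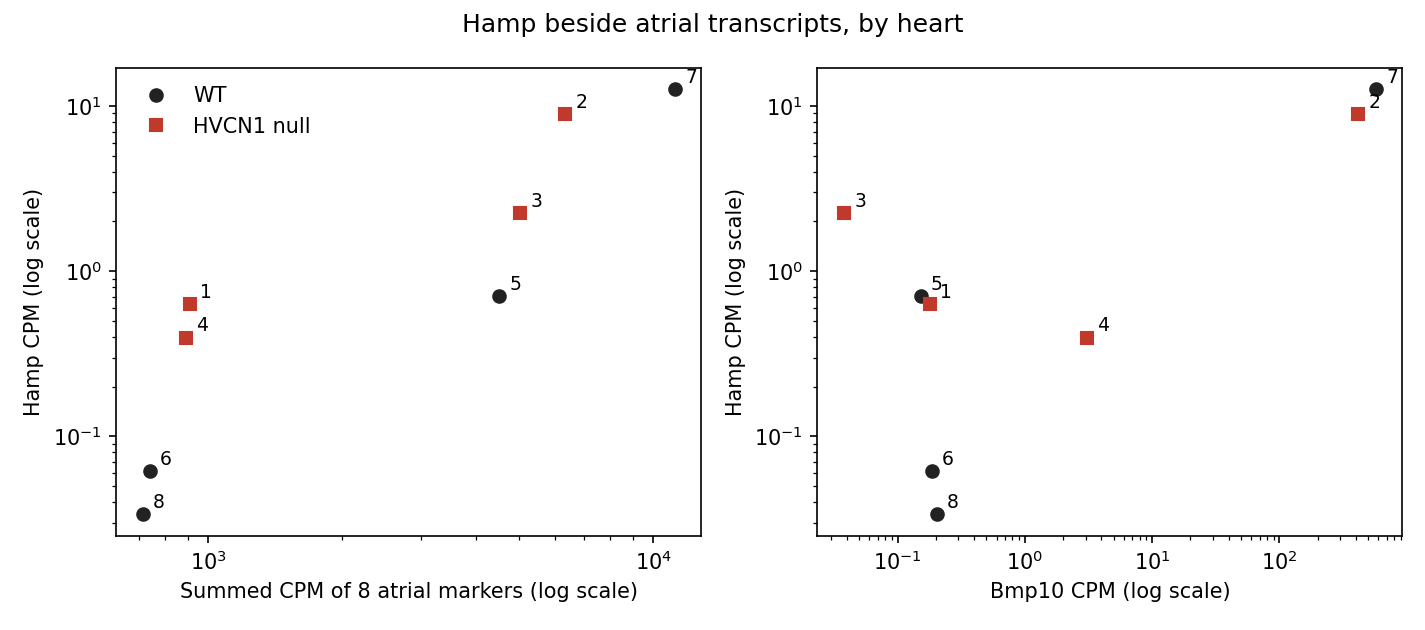
Hamp CPM (vertical axes, log scale) against the summed CPM of 8 atrial markers (left, log scale) and against Bmp10 CPM (right, log scale) in each numbered heart, with WT as black circles and HVCN1 null as red squares. Hearts 2 and 7 are highest on every axis, at 8.93 and 12.7 CPM of Hamp, and on the left Hamp climbs with the atrial sum in both groups.

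Other marker lists moved with Hamp as well, by the mean log2 CPM of each list. Its r over the 8 hearts was 0.925 with adipocyte, 0.883 with mesothelial, 0.825 with liver and 0.817 with Schwann cell markers, and -0.745 with ventricular markers, so these lists cannot be told apart from the atrial one by correlation with 8 hearts. By summed CPM the adipocyte markers did not move with Hamp, being lowest in HVCN1 null heart 2 (307) and highest in WT heart 6 (549). Liver is the main source of hepcidin in the body. Its defining markers Alb, Fga and Fgb had 0 counts in every heart, and the summed level of the 8 liver markers ran from 3.67 to 22.2 CPM in the null group and from 2.53 to 14.8 CPM in the WT group. Ahsg, another liver marker, had 100, 805, 176 and 104 counts in the null hearts and 258, 68, 529 and 52 in the WT hearts, highest in hearts 2 and 7. The part of any of these cell types in the level of Hamp was not tested.

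By pattern over the 8 hearts, the tested genes closest to Hamp were Gcgr (r = 0.981), Gprin3 (r = 0.980), Rfx2 (r = 0.980), Zfp248 (r = 0.979) and Unc13b (r = 0.979). Unc13b, the most abundant of these, stood at 16.5, 26.9, 22.8 and 17.4 CPM in HVCN1 null hearts and at 19.6, 12.8, 34.9 and 13.1 CPM in WT hearts, also highest in hearts 7 and 2 and lowest in hearts 6 and 8, over a far smaller range than Hamp. Hamp2, a neighbour on chromosome 7 that is 93.3% identical over 99.3% of its length, had 3, 11, 4 and 3 counts in the null hearts and 7, 2, 8 and 1 in the WT hearts and was not tested. Its counts too were highest in hearts 2 and 7, and reads shared between the genes could not be assigned.

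Transcription of Hamp in the liver responds to BMP signals through SMAD sites. In the RefSeq promoter of Hamp (GRCm38.p6, 250 bases before to 50 after the start, - strand) a search on both strands for GGCGCC, the core of a BMP-responsive element, gave 1 match. It is shown because BMP signals act in the liver on the member that varied most, with the matched letters in capitals. Their part in the level of Hamp in these hearts was not tested.
Hamp GGCGCC, 109 bases before the start, chr7:30944121-30944150, - strand: tcccgcctgtttGGCGCCactattttcttg
Of 32851 promoters of this length, 11.9% held GGCGCC, 8.3% held TTCNNNGAA (N being any base) and 7.15% held CACGTG, the E-box. Promoters of 5 of the 10 members were in the table (Hamp, Tfrc, Fth1, Ftl1 and Cp). Of these, Hamp and Tfrc held GGCGCC, Hamp alone held TTCNNNGAA and none held CACGTG. A match is a description of the letters and not a measured site.

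Compared per length, the members spanned more than 3 orders of magnitude in WT hearts. Fth1 stood at 1041 ± 92.1 TPM (SD, n = 4), Ftl1 at 628 ± 155 TPM and Cp at 25.1 ± 2.31 TPM. Hamp followed at 20.7 ± 38.6 TPM, a mean carried by WT heart 7 with 78.5 TPM. Tfrc stood at 12.4 ± 3.62 TPM, Slc39a14 at 10.3 ± 0.975 TPM, Slc11a2 at 8.24 ± 0.322 TPM and Slc40a1 at 5.43 ± 0.824 TPM. Trf (0.931 ± 0.366 TPM) and Heph (0.778 ± 0.246 TPM) were lowest, the level of Trf being uncertain for its exonic bases shared with Gm20425. In this order the WT values of Cp and Hamp, Hamp and Tfrc, Tfrc and Slc39a14, and Trf and Heph overlapped, and the other neighbours did not. The order of the group means was the same in HVCN1 null hearts. So messages for storage stood far above those for import, and the exporter below the importers Tfrc, Slc39a14 and Slc11a2. With the length of the longest transcript in place of all exons, Slc40a1 came to 10.6 TPM and Slc11a2 to 10.1 TPM, which reverses their order. Slc39a14 (18.2 TPM) then stood above Hamp (17.7 TPM) and Tfrc (13.4 TPM), and Heph (1.07 TPM) above Trf (1.02 TPM). Fth1 (1494 TPM), Ftl1 (741 TPM) and Cp (44.9 TPM) stayed on top.

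**Figure D4:**
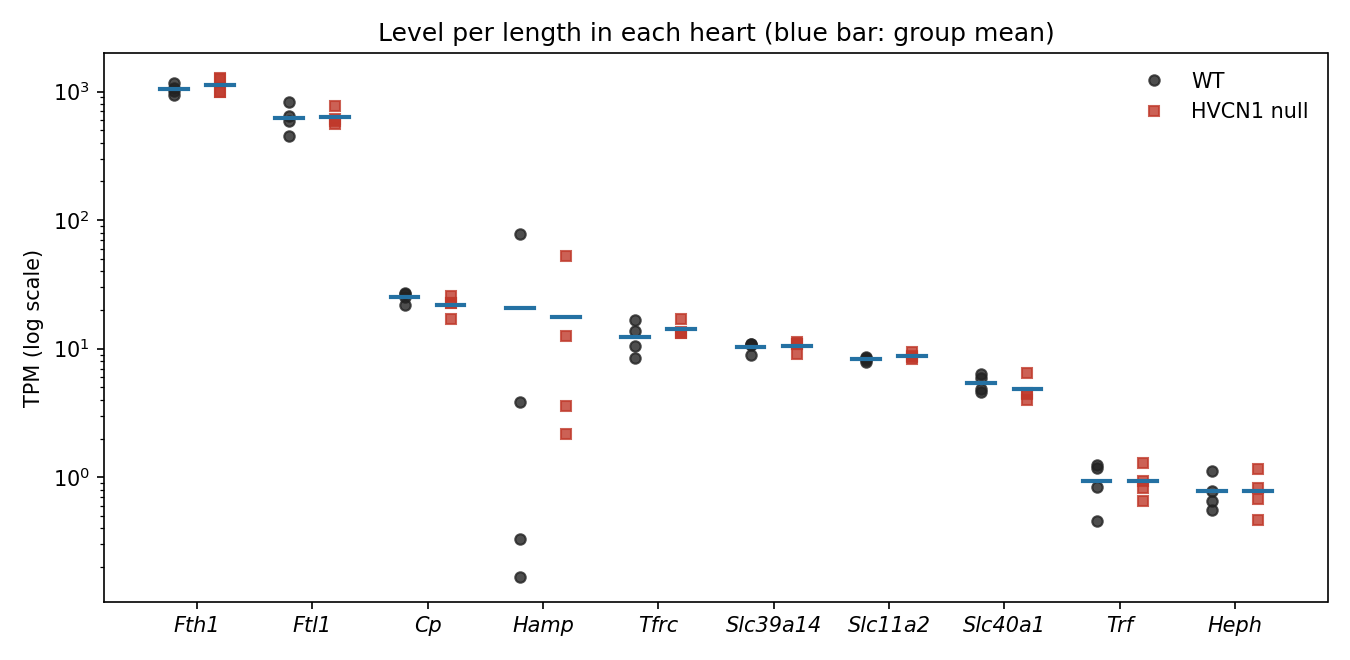
TPM of the 10 genes in each heart (vertical axis, log scale), ordered by the WT mean, with WT as black circles, HVCN1 null as red squares and blue bars at the group means. Ferritin messages stand at 1041 (Fth1) and 628 (Ftl1) TPM in WT hearts, Trf and Heph lie below 1 TPM on average, and Hamp covers the widest range, from 0.167 to 78.5 TPM in WT hearts.

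Members varied together in some pairs over the 8 hearts, which share their libraries and their mix of tissue. The highest Pearson r of log2 CPM were 0.753 for Fth1 with Slc11a2, 0.746 for Trf with Ftl1, 0.737 for Cp with Slc39a14 and 0.716 for Hamp with Heph, and the ferritin chains had 0.665. The lowest were -0.902 for Heph with Slc11a2 and -0.782 for Fth1 with Heph. Those genes also moved with cell type markers. Heph had an r of 0.841 with endothelial, 0.829 with mesothelial, 0.786 with fibroblast and -0.815 with ventricular markers, while Slc11a2 had -0.824, -0.824, -0.725 and 0.864 with the same lists. Fth1 had an r of 0.791 with ventricular markers and 0.601 with erythroid markers, and Slc40a1 had 0.655 with erythroid markers.

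Red cell precursors and reticulocytes hold much iron machinery, so the erythroid level was set beside the members. All 8 erythroid markers were lower in mean in HVCN1 null hearts (median log2 fold change -0.99), and 0 were called. Over all 14796 tested genes, 7794 had a log2 fold change below 0. At an unadjusted p under 0.05 by edgeR's quasi-likelihood test there were 2 of the 8 (25.0%), beside 11.0% of all tested genes. The 8 are markers of 1 cell type and not separate results. Their summed level was 1298, 1292, 3215 and 8395 CPM in HVCN1 null hearts and 15235, 3020, 3953 and 5039 CPM in WT hearts. WT heart 5, highest in this sum, was also highest in Ftl1, but HVCN1 null heart 4, with 8395 CPM of markers, had 363 CPM of Ftl1. Over the 8 hearts the r with the erythroid marker mean was 0.509 for Ftl1, 0.601 for Fth1 and -0.297 for Tfrc. With the erythroid marker mean as a covariate the log2 fold change of Ftl1 was 0.18 (adjusted p = 0.688) and that of Fth1 was 0.25 (adjusted p = 0.456), and again 0 of the 10 members were called. The marker mean ran from 3.99 to 6.92 log2 CPM in HVCN1 null hearts and from 5.84 to 7.69 in WT hearts. In every fit with this covariate, its part and that of genotype therefore cannot be fully told apart.

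**Figure D5:**
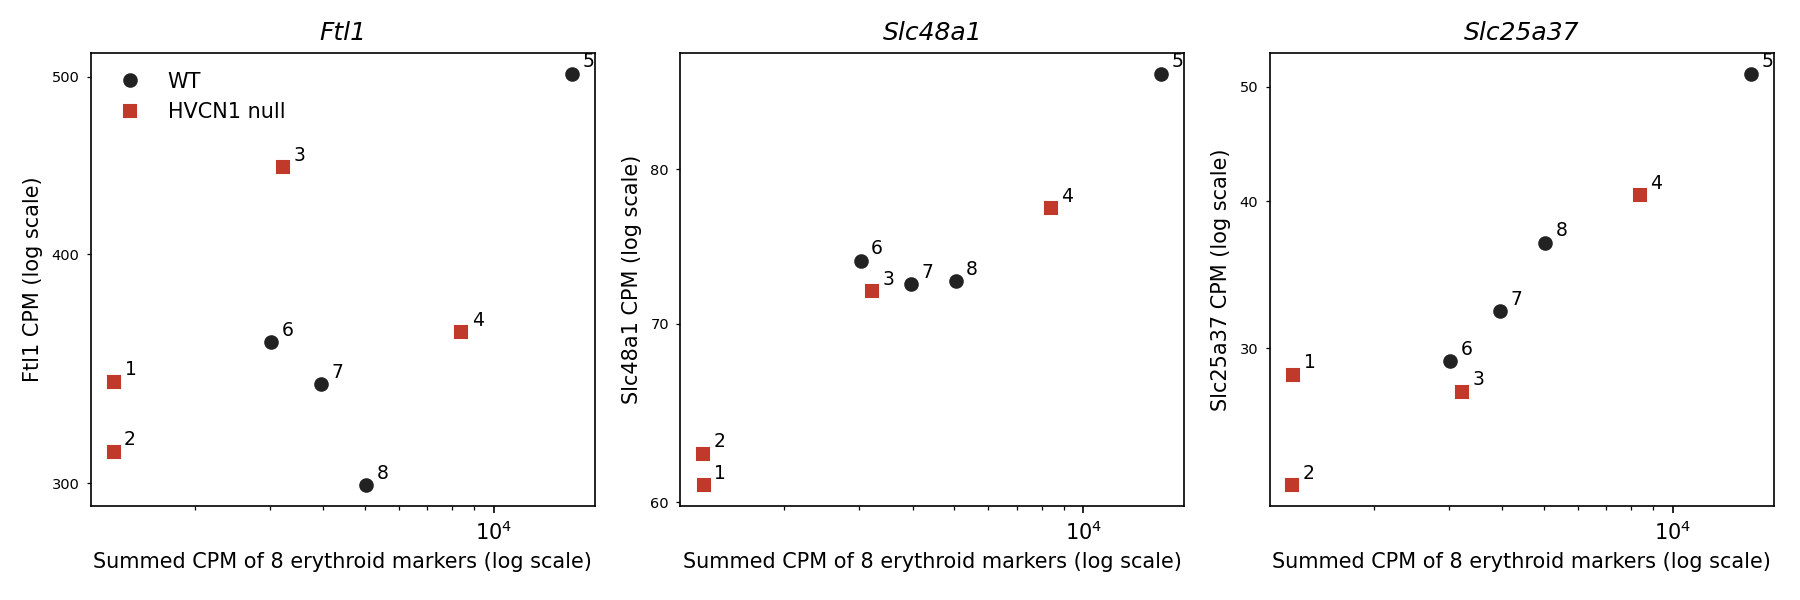
CPM of Ftl1, Slc48a1 and Slc25a37 (vertical axes, log scale) against the summed CPM of 8 erythroid markers (horizontal axes, log scale) in each numbered heart, with WT as black circles and HVCN1 null as red squares. WT heart 5, with 15235 CPM of erythroid markers, is highest in all 3 panels, and Slc48a1 and Slc25a37 climb with the markers more evenly than Ftl1.

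Of 81 other genes of iron handling, listed by role, 67 passed the filter and 0 were called, with 24 above and 43 below 0 and a median log2 fold change of -0.08. Of all tested genes, 7002 lay above and 7794 below 0, with a median of -0.01. At an unadjusted p under 0.05 there were 9 (13.4%, against 11.0% of all tested genes), 4 higher and 5 lower in HVCN1 null hearts. The groups did not overlap for 6 (8.96%, against 7.06%), which were Bmp6, Neo1, Steap3, Cisd2, Blvra and Flvcr1, named after their values were seen. Cisd2 had an r of 0.823 with the erythroid marker mean.

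The proteins that read cellular iron gave 0 calls among 3 tested. Ireb2, which encodes the iron regulatory protein IRP2, stood at 24.8 ± 2.47 CPM in HVCN1 null and 28.7 ± 3.23 CPM in WT hearts (log2 fold change -0.21, SE 0.11, adjusted p = 0.537). Aco1, which encodes IRP1, had a log2 fold change of 0.10 (adjusted p = 0.793), and Fbxl5, the iron-sensing subunit that marks IRP2 for decay, had -0.11 (adjusted p = 0.807). Of other messages with an IRE, Epas1, the hypoxia factor HIF-2α, stood at 420 ± 52.5 and 444 ± 60.3 CPM (log2 fold change -0.08). Alas2, the red cell enzyme that starts heme synthesis and one of the erythroid markers, had -1.02 (SE 0.57, adjusted p = 0.589).

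The genes that steer hepcidin held the lowest adjusted p-values of the iron genes, in both directions. Bmp6, the ligand by which endothelial cells report iron to the liver, stood at 25.6 ± 2.26 CPM in HVCN1 null hearts (24.1 to 28.9) and at 34.2 ± 3.90 CPM in WT hearts (31.3 to 39.9). Its log2 fold change was -0.42 (SE 0.10, adjusted p = 0.103 by edgeR's quasi-likelihood test). It was past the threshold by DESeq2 (adjusted p = 0.0195), edgeR's exact test (0.0305) and edgeR's likelihood ratio test (0.0300), but not by voom (0.113), and over all alternatives its log2 fold change stayed between -0.51 and -0.33. Neo1, the neogenin receptor that binds hemojuvelin, stood at 107 ± 10.7 and 78.0 ± 12.1 CPM (log2 fold change 0.45, SE 0.12, adjusted p = 0.156, DESeq2 0.0220). Id1, a common target of BMP signals, stood at 49.4 ± 8.21 and 34.6 ± 6.68 CPM (log2 fold change 0.51, SE 0.15, adjusted p = 0.199, DESeq2 0.0408). Hjv, the BMP co-receptor hemojuvelin, stood at 208 ± 29.0 and 258 ± 13.7 CPM (log2 fold change -0.31, SE 0.11, adjusted p = 0.300), and its r with the erythroid marker mean over the 8 hearts was 0.80. The median over the 16 tested genes of this list was -0.07, and 4 of the 16 (25.0%) had an unadjusted p under 0.05 beside 11.0% of all genes. The heme genes had the same share, with 3 of 12. The acute phase genes gave 0 calls among 4 tested, with Stat3 at 0.08 and Il6st at -0.07, and Il6 itself had 8 counts in the null and 15 in the WT hearts.

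Among the other uptake proteins and reductases, 9 of 10 tested genes had a lower mean in the null group, their median log2 fold change was -0.23 and 0 were called. Over all 14796 tested genes, 7794 had a log2 fold change below 0. Steap3, the endosomal reductase that prepares iron for DMT1, stood at 38.8, 37.5, 38.9 and 36.1 CPM in HVCN1 null hearts and at 44.0, 44.8, 44.9 and 41.4 CPM in WT hearts. Every null heart was below every WT heart, and the log2 fold change was -0.21 (SE 0.07, adjusted p = 0.264). Steap4 had -0.25 (SE 0.16, adjusted p = 0.670). Steap2 (-0.68, SE 0.45, adjusted p = 0.696) and Cybrd1, a ferric reductase (-0.63, SE 0.86, adjusted p = 0.892), had the largest values of the list and wide errors at about 1 CPM. Their r with the atrial marker mean was 0.760 and 0.638.

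Inside the cell, the chaperones that hand iron to ferritin were close to equal in the groups. Pcbp2 stood at 184 ± 5.20 and 186 ± 7.75 CPM (log2 fold change -0.01) and Pcbp1 at 129 ± 5.14 and 122 ± 5.36 CPM (0.09). Ncoa4, which takes ferritin to the lysosome when iron is needed, had -0.17 (SE 0.12, adjusted p = 0.719). In the mitochondrial list, where 14 genes were tested and 0 called, Slc25a37, the mitochondrial iron importer mitoferrin 1, had -0.33 (SE 0.20, adjusted p = 0.659), and its r with the erythroid marker mean was 0.911. Isca1 (-0.16) and the outer membrane protein gene Cisd1 (0.04) were the most abundant of this list by CPM.

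Of the heme genes, 12 were tested and 0 called. At an unadjusted p under 0.05 by edgeR's quasi-likelihood test there were 3 (25.0%), beside 11.0% of all tested genes. Fech, which inserts iron into heme, stood at 129 ± 18.9 and 161 ± 14.3 CPM (log2 fold change -0.32, SE 0.12, adjusted p = 0.334), and its r with the erythroid marker mean was 0.784. Blvra, the biliverdin reductase, stood at 13.3, 12.4, 16.6 and 19.3 CPM in HVCN1 null hearts and at 11.5, 12.1, 10.6 and 10.6 CPM in WT hearts (log2 fold change 0.46, SE 0.14, adjusted p = 0.205), with every null heart above every WT heart. Flvcr2 had 0.48 (SE 0.21, adjusted p = 0.437). Lrp1, the receptor for heme bound to hemopexin, had -0.13 (adjusted p = 0.905), and Hp, the haptoglobin gene, had -0.55 (SE 0.68, adjusted p = 0.877) with an r of 0.805 to the atrial marker mean. Slc48a1, a heme transporter of the lysosome, had an r of 0.970 with the erythroid marker mean.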

How the data were processed

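Poly-A RNA from each heart was sequenced by the authors as paired reads. Per the study's methods and the labels' processing notes, reads were aligned with STAR and counted on genes with featureCounts, on mm10/GRCm38 (the methods text names another species' genome, but the identifiers are mouse). Versions, strand setting and treatment of reads that fit several genes are not given in the sources used here. The deposited file holds the authors' raw counts for each gene and library, which were not normalized.

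Of 39056 genes, 38872 (99.5%) matched GENCODE M21 by identifier without its version, which gave symbols, positions and exon lengths. Smad9 carries the name Smad8 in the lists. CPM values with TMM-scaled library sizes, log2 CPM values (prior count 2) and TPM values were computed here. Low genes were removed by filterByExpr at default settings, and DEGs were called with the quasi-likelihood test of edgeR 4.0.16 in R 4.3.3 (Benjamini-Hochberg adjusted p under 0.05, all 8 hearts, no covariate), with p-values adjusted over all tested genes. For single members, the difference in mean CPM was put to a two-sided exact permutation test (70 assignments of hearts). The scripts were tested on simulated data. DESeq2 1.42.0, limma 3.58.1 (voom), BLAST 2.17.0, Python 3.11.15 and scipy 1.17.1 were also used.

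Members and lists were chosen with earlier results of these data known. Beyond the members and Hvcn1, genes were named by rule, as those called and, in each iron list, the 2 of highest mean CPM and the 2 of largest absolute log2 fold change, and the 5 closest in pattern to the member of largest SD. Others were named after their values were seen. Some items that the rule takes in are not reported here, but they remain in the counts over lists. Alternatives were 2 scalings, 2 filters, 4 tests, 2 covariates, each heart left out, another transcript length, and the log2 scale. No batch is given. Replicates are separate hearts, which differed beyond sampling noise.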

Additional observations from a re-analysis of the deposited data

Results flagged for a closer look

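The 20 groups of 4 hearts (10 genes in HVCN1 null and WT) were searched for a heart far from the other 3, and 3 were found, where chance gives about 1 in 20 groups. Hamp stood at 12.7 CPM in WT heart 7 and at 0.709 CPM in the next WT heart, a gap of 0.947 of the range of that group (critical value 0.829). Tfrc stood at 43.4 CPM in HVCN1 null heart 2 and at 36.3 CPM in the next null heart, a gap of 0.856 of the range. Slc39a14 stood at 42.8 CPM in HVCN1 null heart 4 and at 49.4 CPM in the next null heart, a gap of 0.944 of the range. For Slc39a14 the outlying value lies inside the range of the WT hearts, and for Tfrc it lies above the highest WT heart, at 42.1 CPM.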

How the results depend on the processing

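No paired analysis was possible because no number is carried by hearts of both genotypes. The count of members called was 0 under each alternative, out of 9 where CPM above 1 in at least 4 hearts was required, which left out Hamp, and out of 9 by DESeq2, which gave Hamp no adjusted p. DEGs over all genes numbered 367 by edgeR's exact test, 376 by its likelihood ratio test, 466 by DESeq2, 91 with the erythroid covariate and 71 to 152 with 1 heart left out (lowest without WT heart 6). Other iron genes called numbered 1 by the exact and likelihood ratio tests (Bmp6) and 3 by DESeq2 (Bmp6, Id1 and Neo1). Of 189 alternative log2 fold changes of members, 164 kept their direction and 25 did not, and 0 crossed the threshold. Of 100 alternative CPM differences, 79 kept their direction.

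The log2 fold change of Hamp was 1.63 by voom, 0.86 with the atrial covariate, -2.14 with the erythroid covariate and 1.88 without hearts 2 and 7 together, an alternative chosen after seeing the data, and its difference in mean log2 CPM was 1.47. Slc39a14 gave 0.018 without scaling (0.610 as a CPM difference) and 0.0091 with the atrial covariate. Heph gave -0.44 and Trf 0.14 with the erythroid covariate and 0.064 without hearts 2 and 7, and Ftl1 gave 0.18 with the erythroid covariate. With 1 heart left out, the log2 fold change ran from -0.016 to 0.13 for Fth1, from -0.15 to 0.15 for Ftl1, from -1.68 to 3.39 for Hamp, from -0.27 to 0.14 for Heph, from -0.020 to 0.076 for Slc11a2, from -0.083 to 0.050 for Slc39a14 and from -0.25 to 0.11 for Trf. The sign turned without null heart 1 for Hamp and Trf, null heart 2 for Ftl1, null heart 3 for Fth1 and Heph, null heart 4 for Hamp, Fth1, Heph, Slc39a14 and Slc11a2, WT heart 5 for Trf and Ftl1, WT heart 7 for Hamp, Trf, Fth1 and Heph, and WT heart 8 for Slc39a14. The difference in mean CPM then ran from -18.9 to 150.4 for Fth1, from -36.3 to 33.1 for Ftl1, from -2.29 to 2.78 for Hamp, from -0.443 to 0.260 for Heph, from -0.307 to 1.26 for Slc11a2, from -3.13 to 1.44 for Slc39a14 and from -0.236 to 0.106 for Trf. The cause of these turns was not tested. TPM moved by more than the SD of the WT hearts for 6 of 10 genes when the longest transcript set the length. The members with the fewest counts were Trf (22 to 70 per heart), Heph (56 to 138) and Hamp (1 to 480).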
